A study of Rattus norvegicus with 743 samples.

Results

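The 10 genes described here were Col1a1, Col1a2, Col3a1, Serpinh1, Sparc, Tagln, Acta2, Lum, Dcn and Timp1. They were chosen by name, as genes of stellate cells and of the extracellular matrix, from the 32893 rows of a rat liver count table, and each matched a row. The table held 743 RNA-seq libraries from 680 rats, 370 given a drug or toxicant and 310 given the vehicle alone. The rats were Sprague Dawley (329 libraries) or Han Wistar (414 libraries), nearly all male, with 17 libraries from females. The 99 treated groups covered 95 treatments and 18 vehicles in 75 studies, most often 4 days of dosing with 4 treated and 4 vehicle rats. Each treated group was set against the vehicle group of its own study, sequencing batch number and vehicle. This gave 97 comparisons of 2 to 6 treated with 3 to 5 vehicle rats. Lapatinib and almorexant groups resequenced under another batch number held the same rats and were not counted again.

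The groups used most below were these, each with vehicle rats of the same strain, duration and vehicle. Male Han Wistar rats were dosed for 4 days with the androgen receptor antagonist flutamide (600 mg/kg), the platelet inhibitor ticlopidine (600 mg/kg, in water), the antidepressant fluoxetine (400 mg/kg), the sulfonylurea chlorpropamide (600 mg/kg), the macrolide clarithromycin (600 mg/kg), the calcium channel blocker mibefradil (600 mg/kg) or the endothelin receptor antagonist sitaxsentan (600 mg/kg). Male Sprague Dawley rats were dosed for 4 days with the diuretic ticrynafen (750 mg/kg), the antiarrhythmic quinidine (300 mg/kg), or a nonsteroidal anti-inflammatory drug: diclofenac (50 mg/kg), naproxen (400 mg/kg), sudoxicam (100 mg/kg) or lumiracoxib (400 mg/kg). Male Sprague Dawley rats were also dosed for 17 days with phenobarbital (100 mg/kg), and female ones for 7 days with the orexin receptor antagonist almorexant (750 mg/kg, in PEG 400). The vehicle of these groups was 0.5% methylcellulose in water unless named. Other groups with fold changes below were males dosed for 4 days in that vehicle, except as named. Sprague Dawley rats were given diphenhydramine (400 mg/kg), omeprazole (750 mg/kg), or 600 mg/kg of azithromycin, clofibrate, co-amoxiclav or atorvastatin. Han Wistar rats were given paroxetine (300 mg/kg), or 400 mg/kg of Cmpd Z, zimelidine or disopyramide. Others were given 600 mg/kg of hydroxyzine, amiodarone, nifedipine, panadiplon or methimazole. Other vehicles were used in Han Wistar males. Carbamazepine (600 mg/kg) was given in propylene glycol, and ritonavir (400 mg/kg) in 80% propylene glycol with 5% ethanol. Amprenavir (600 mg/kg) was in 2% carboxymethylcellulose and alpidem (600 mg/kg) in 60% PEG 400 with saline. NB-360 (750 mg/kg) was given for 5 days in 0.4% hydroxypropyl methylcellulose with polysorbate and PEG 400. Groups with only their calls counted below were dosed for 4 days. Nitrofurantoin (500 mg/kg) and trimethobenzamide (600 mg/kg) were given to Sprague Dawley males in 0.5% methylcellulose. Han Wistar males were given trovafloxacin (600 mg/kg) in 0.5% methylcellulose or nefazodone (600 mg/kg) in propylene glycol. Pyrazole (200 mg/kg) was given in saline to Han Wistar rats of both sexes, 3 treated against 3 vehicle rats. The rats of a group are separate animals by their labels. The vehicle rats of chlorpropamide, clarithromycin, naproxen, quinidine and sitaxsentan also served as controls for 1 or 2 other treatments.

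Hepatic stellate cells lie between the sinusoidal endothelium and the hepatocytes, where they store vitamin A. On injury they can become myofibroblast-like cells that contain smooth muscle actin and secrete fibrillar collagen, the process that leads to liver fibrosis. Collagen chains are folded in the endoplasmic reticulum with the help of a dedicated chaperone, HSP47, the product of Serpinh1, and are then secreted and assembled into fibrils to which decorin and lumican bind. TIMP1 inhibits the metalloproteinases that degrade this matrix. None of the 10 genes belongs to stellate cells alone: portal fibroblasts, vascular smooth muscle and mesothelium share many of them, and other liver cells can make TIMP1.

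The sequences just upstream of 3 of these genes are shown because in some of the livers below they were called where the collagens were not, or in the other direction. RefSeq promoters of the assembly GRCr8 were matched for 6 of the 10 genes, also Col1a2, Lum and Sparc. Each line gives the 250 bases before the annotated start, 5′ to 3′ on the gene's strand. Serpinh1 is at chr1:163062977-163063226 on the minus strand, Acta2 at chr1:241172504-241172753 on the minus strand and Timp1 at chrX:3771123-3771372 on the minus strand.
Serpinh1: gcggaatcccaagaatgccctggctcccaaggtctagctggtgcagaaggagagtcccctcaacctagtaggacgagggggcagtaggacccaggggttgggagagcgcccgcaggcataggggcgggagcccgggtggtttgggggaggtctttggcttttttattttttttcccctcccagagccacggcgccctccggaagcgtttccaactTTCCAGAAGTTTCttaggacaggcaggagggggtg
Acta2: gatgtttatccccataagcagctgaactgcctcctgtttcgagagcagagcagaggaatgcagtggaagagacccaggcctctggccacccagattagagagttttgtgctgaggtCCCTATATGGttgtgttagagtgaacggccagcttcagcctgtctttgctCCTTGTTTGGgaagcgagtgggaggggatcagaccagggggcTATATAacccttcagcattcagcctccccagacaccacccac
Timp1: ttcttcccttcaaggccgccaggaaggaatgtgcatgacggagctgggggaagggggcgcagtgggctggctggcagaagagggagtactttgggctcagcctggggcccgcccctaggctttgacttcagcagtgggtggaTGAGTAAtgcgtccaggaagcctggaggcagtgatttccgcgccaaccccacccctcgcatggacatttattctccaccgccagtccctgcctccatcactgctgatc

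Capitals mark the motifs found on either strand. In Serpinh1 they are TTCNNGAA, 35 to 28 bases before the start, and GAANNTTC, 30 to 23 bases before it, which overlap and are the paired units that heat shock factor recognises. In Acta2 they are CArG boxes, the element of serum response factor, searched with 1 inner letter left free, 134 to 125 and 84 to 75 bases before the start, and a TATA-like TATANA 42 to 37 bases before it. In Timp1 the capitals mark TGAGTAA, a near match to the AP-1 site, 108 to 102 bases before the start, while TGANTCA was not found in that window. Of 33469 RefSeq promoters of this length, TTCNNGAA was in 7.5%, GAANNTTC in 7.2%, a CArG box in 8.1%, TATANA in 24.2%, TGAGTAA in 2.4% and TGANTCA in 6.3%. These matches describe the letters only.

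Among vehicle livers the levels per transcript length differed widely between the 10 genes. In the deposited FPKM values of 80 vehicle libraries, the median was 101 FPKM for Sparc, a collagen-binding glycoprotein of the matrix, and 76.9 FPKM for Col3a1, the chain of type III collagen. Serpinh1 followed at 9.44 FPKM, Dcn at 5.36, Col1a2 at 4.91, Tagln at 3.604, Col1a1 at 2.71, Acta2 at 2.34 and Timp1 at 1.99, and Lum was at 0.399 FPKM. Sparc was above Col3a1 in 77 of the 80 libraries, Col3a1 above Serpinh1 in all 80, Serpinh1 above Dcn in 68 and Timp1 above Lum in 79. Between them the order was loose: by these Ensembl rows Dcn was above Col1a2 in 44 libraries, Col1a1 above Acta2 in 52 and Acta2 above Timp1 in 47. The FPKM of RefSeq genes placed Col1a2 higher, at a median of 9.24 FPKM, above Serpinh1 at 8.30 FPKM, for the reason given below.

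**Figure D1:**
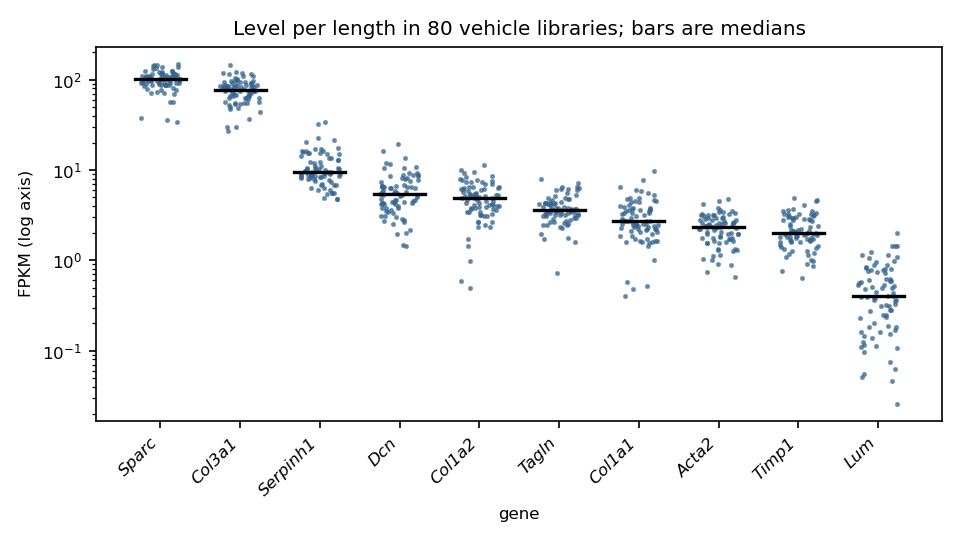
Level of each gene per transcript length in 80 vehicle libraries (FPKM, log axis), with points for libraries and bars for medians. Sparc and Col3a1 lie near 100 and 77 FPKM, Lum near 0.4, and the genes between them overlap.

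Most listed markers of quiescent stellate cells were present, with 10 of 12 past the count filter in the phenobarbital comparison of Sprague Dawley rats. In the vehicle livers of the quinidine study, for example, Reln ran from 42.9 to 53.5 CPM (counts scaled to library size), Lrat, which stores retinol as its ester, from 19.6 to 30.2 CPM, Gfap from 2.31 to 3.95 CPM and Des from 1.21 to 2.55 CPM. The contractile gene Acta2 had a median of 3.21 CPM and Tagln 3.95 CPM over the vehicle group means, both low beside Col3a1 at 379 CPM and Sparc at 214 CPM on the same scale, which is not adjusted for length. In such bulk samples, fewer cells of a type and less RNA per cell cannot be told apart.

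The spread between vehicle rats of a group set how small a change could be seen. Over 309 vehicle rats in 79 groups, the standard deviation (SD) of log2 CPM between rats was 0.16 for Sparc and 0.26 for Col3a1. It was 0.38 for Serpinh1, 0.40 for Tagln, 0.47 for Timp1, 0.52 for Col1a1, 0.56 for Col1a2, 0.58 for Acta2, 0.59 for Dcn and 1.25 for Lum. Repeat libraries of the same rat under the same batch number (84 libraries of 40 rats) differed by an SD of 0.05 for Sparc and 0.39 for Lum. Repeats under another batch number were left out of this SD and could differ far more. By RefSeq counts, 3 vehicle rats of the cimetidine study had 13.2, 16.7 and 12.9 CPM of Col1a2 under batch number 10. Under batch number 3, as propranolol controls, they had 69.8, 54.5 and 54.0 CPM. The cause was not tested.

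Col1a2 needs its own reading. In the table with Ensembl genes its values were whole numbers in 0.3% of libraries, against 82.1% to 100% for the other 9 genes. Repeat libraries of 1 rat under the same batch number differed there by an SD of 0.46 on the log2 scale. The deposited table with RefSeq genes gave 0.088. A second row, NEWGENE_621351, shared its reads: the median count was 395 for Col1a2 and 389 for that row, against 794.5 for Col1a2 in the RefSeq table. Their sum was within 2% of the RefSeq count in 672 of 680 rats, while the part in the Col1a2 row ran from 0% to 100%. Col1a2 was therefore also tested in the RefSeq table, where 3 comparisons were called higher and 13 lower, against 1 and 4 in the Ensembl table, 4 of them in both. The RefSeq value stands beside each Col1a2 fold change of the treated livers below.

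Across the 97 comparisons the 10 genes were called lower more often than higher. A call means an adjusted p under 0.05 by edgeR's quasi-likelihood test with Benjamini-Hochberg adjustment over all genes tested in that comparison. Of 942 pairs of gene and comparison that passed the count filter, out of 970, 70 were lower (7.43%) and 25 higher (2.65%). Over all genes in all comparisons, 4.55% of tests were called lower and 4.97% higher. DESeq2 called 123 pairs lower, 13.5% of those tested (6.51% over all genes), and 51 higher, 5.58% (7% over all genes). RefSeq counts gave 8.39% lower (4.65% over all genes) and 2.97% higher (5.21%), RLE scaling 7.64% lower (4.56%) and 2.65% higher (4.95%), and no count filter 6.91% lower (2.93%) and 2.68% higher (3.31%). With the RNA integrity number (RIN) of each rat as a covariate, 27 pairs were lower, 2.83% (2% over all genes), and 18 higher, 1.88% (2.23% over all genes), both near the background. In 58 comparisons none of the 10 was called, 33 held at least 1 lower and 10 at least 1 higher, and 4 held both.

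**Figure D2:**
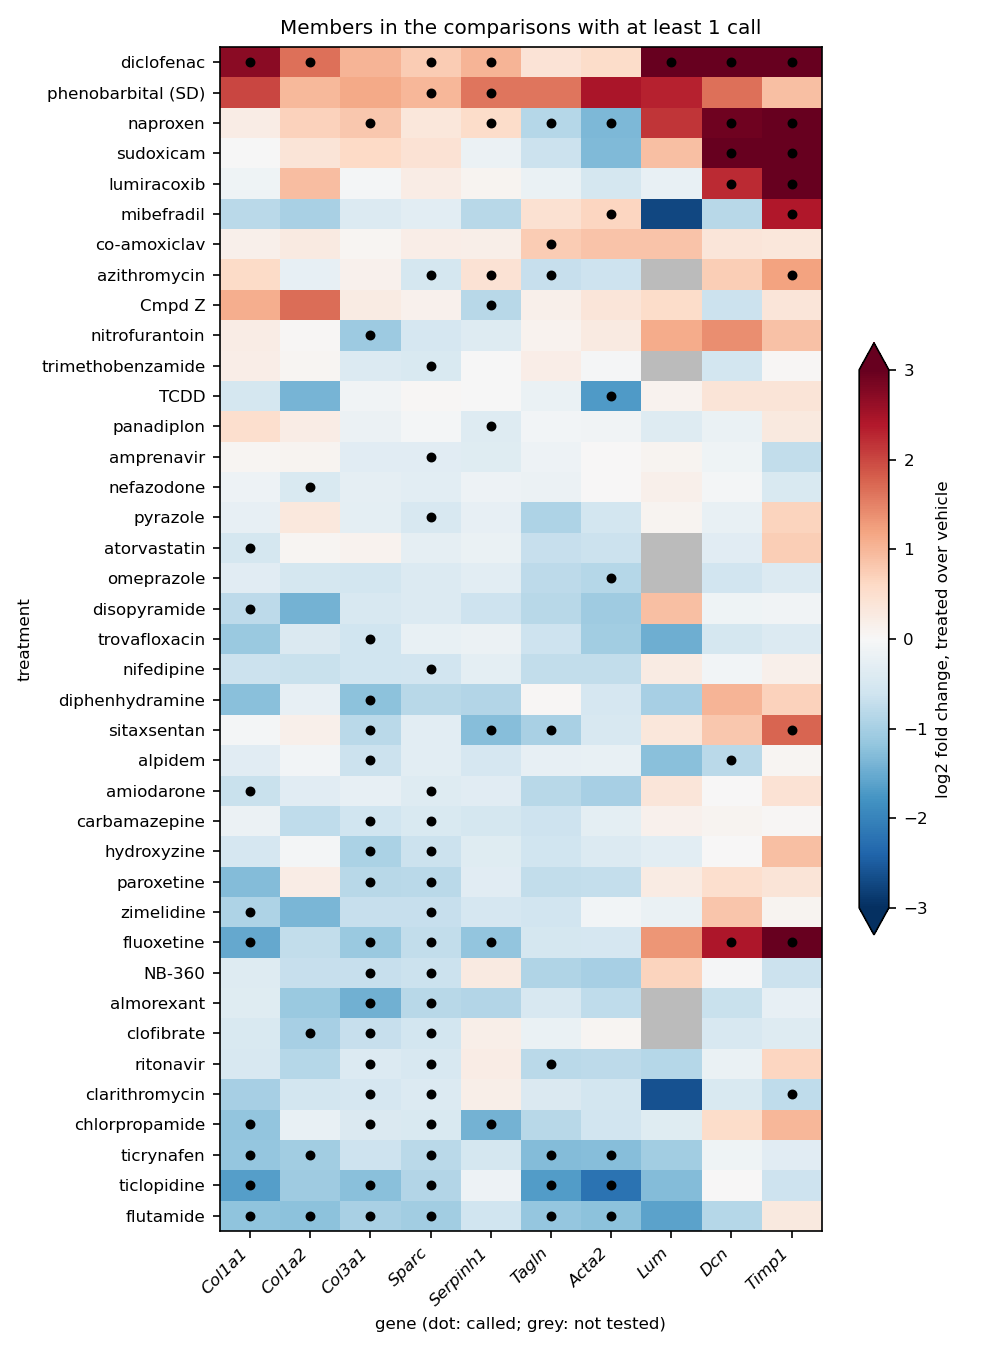
Log2 fold change, treated over vehicle, of the 10 genes (columns) in the 39 comparisons with at least 1 call (rows), with a dot for each call, grey where a gene did not pass the count filter, and a colour scale that ends at 3 in each direction. Blue cells in the columns of Col3a1 and Sparc fill the lower part, and the red cells at the right of the top rows are Dcn and Timp1.

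The counts differed between the genes. Sparc was lower in 20 comparisons (20.6%, against 4.55% over all genes) and higher in 2, and Col3a1 lower in 17 (17.5%) and higher in 1. Col1a1 was lower in 9 and higher in 1, Tagln lower in 7 and higher in 1, and Acta2 lower in 6 and higher in 1. Timp1 was higher in 8 comparisons (8.33%, against 4.97% over all genes) and lower in 1. Dcn was higher in 5 (5.15%) and lower in 1, and Serpinh1 higher in 4 (4.12%) and lower in 5 (5.15%), shares near those over all genes. Lum passed the count filter in 72 comparisons only and was higher in 1 of them.

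The comparisons with most genes lower were flutamide with 6 of 10 (background 24.6% of all genes lower), ticlopidine with 5 (25.1%), ticrynafen with 5 (5.42%), fluoxetine with 4 (23.4%), chlorpropamide with 4 (7.87%) and clarithromycin with 3 (8.76%). With 1 rat left out at a time, flutamide, ticlopidine, ticrynafen and fluoxetine kept counts within 1.5 times of these. The chlorpropamide count was 2 without treated rat 3 or vehicle rat 1. Clarithromycin had 0 without treated rat 1, treated rat 3 or vehicle rat 2, and 1 without treated rat 2, vehicle rat 3 or vehicle rat 4, and each of its 3 calls was lost with at least 4 of the 8 rats left out.

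The comparisons with most genes higher were diclofenac with 7 of 10 (background 15.6% of all genes higher), naproxen with 4 (18.8%), phenobarbital in Sprague Dawley rats with 2 (0.758%), mibefradil with 2 (8.36%), sudoxicam with 2 (18.6%), fluoxetine with 2 (23.7%) and lumiracoxib with 2 (10.5%). Naproxen also had 2 lower (18.4%). The diclofenac count was 4 without treated rat 3, vehicle rat 1 or vehicle rat 3, and the naproxen count of 6 was 3 without treated rat 1. Lumiracoxib had 1 without treated rat 2 or vehicle rat 2. Mibefradil had 0 without treated rat 1 and 1 without any of the 4 vehicle rats. The phenobarbital count ran from 0 to 6 over its 5 rats: 0 without vehicle rat 2 or 3, 1 without treated rat 1 or vehicle rat 1, and 6 without treated rat 2.

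The remaining comparisons with a call differed in how many of all genes changed. With 3 of the 10 genes lower there were clofibrate (background 6.31% of all genes lower), ritonavir (19%) and sitaxsentan (13.6%). With 2 lower there were almorexant (17.1%), carbamazepine (19.4%), paroxetine (3.13%), amiodarone (3.07%), azithromycin (22.3%), hydroxyzine (12.5%), zimelidine (6.63%), alpidem (5.21%) and NB-360 (12.7%). With 1 lower, the background was 1.97% for diphenhydramine, 5.45% for nitrofurantoin, 2.23% for omeprazole, 9.13% for nefazodone, 1.26% for disopyramide, 6.18% for trimethobenzamide, 4.77% for atorvastatin, 3.77% for nifedipine, 1.77% for trovafloxacin, 5.59% for panadiplon, 1.5% for amprenavir, 18.3% for Cmpd Z, 4.43% for pyrazole and 12.1% for TCDD. Azithromycin also had 2 higher (24.8% of all genes higher), sitaxsentan 1 (15.5%) and co-amoxiclav 1 (3.74%).

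The 3 largest rises and falls shown for each gene were chosen among called changes without overlap. Their lack of overlap is therefore part of the choice and not a further result. Among the called falls of Col1a1, a chain of type I collagen, that in ticlopidine livers was the largest. It had 4.92, 6.93, 4.66 and 6.59 CPM in ticlopidine livers, against 21.5, 22.8, 15.7 and 12.2 CPM in vehicle livers, and the groups did not overlap. The log2 fold change was −1.64 ± 0.22 (SE, n = 4 each, edgeR adjusted p = 0.000212). In fluoxetine livers Col1a1 had 5.10, 3.48 and 4.72 CPM, against 14.0, 9.12, 14.7 and 13.4 CPM in vehicle livers, again with no overlap (log2 fold change −1.53 ± 0.21, edgeR adjusted p = 0.00107). Flutamide livers had 8.25, 4.81, 8.34 and 8.51 CPM, against 21.7, 20.3, 13.0 and 14.3 CPM in vehicle livers. All flutamide rats were below all vehicle rats, with a log2 fold change of −1.21 ± 0.22 (edgeR adjusted p = 0.00175). With RIN as a covariate the flutamide log2 fold changes of Col1a1, Col1a2 (Ensembl row) and Col3a1 turned to 0.22, 1.01 and 0.13, none called, and RIN did not overlap between the groups.

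Col1a1 was also lower in chlorpropamide livers, at 4.16, 6.52, 4.17 and 4.77 CPM, against 10.2, 13.3, 8.50 and 12.4 CPM in vehicle livers, and stayed called with each of the 8 rats left out (log2 fold change −1.18 ± 0.18, edgeR adjusted p = 0.00361). In ticrynafen livers it averaged 9.40 CPM, against 20.9 CPM in vehicle livers, a log2 fold change of −1.16 ± 0.23 (edgeR adjusted p = 0.0168). Zimelidine, disopyramide, amiodarone and atorvastatin were the other 4 comparisons with a lower Col1a1, with log2 fold changes between −0.92 and −0.53.

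Its partner chain, Col1a2, was called lower by RefSeq counts in 7 of those 9 comparisons, not in amiodarone (−0.42 ± 0.14) or atorvastatin (0.00 ± 0.14) livers. It was also lower where Col1a1 was not called, in almorexant, carbamazepine, clofibrate, ritonavir, methimazole and TCDD livers. By RefSeq it had 15.7, 14.7, 20.8 and 21.5 CPM in flutamide livers, against 46.0, 41.2, 39.5 and 38.6 CPM in vehicle livers, with no overlap (log2 fold change −1.18 ± 0.13, edgeR adjusted p = 0.000107). The Ensembl row gave −1.24 ± 0.38 (edgeR adjusted p = 0.0271), and that call was lost with 4 of the 8 rats left out. In ticlopidine livers the RefSeq values were 15.9, 18.8, 14.2 and 21.1 CPM, against 45.3, 44.3, 37.4 and 43.1 CPM in vehicle livers (log2 fold change −1.28 ± 0.12, edgeR adjusted p = 1.9e-05), whereas the Ensembl row did not pass (−1.06 ± 0.48, edgeR adjusted p = 0.11). Fluoxetine likewise passed by RefSeq only, at −1.15 ± 0.15 (edgeR adjusted p = 0.000757), against −0.74 ± 0.33 by Ensembl (edgeR adjusted p = 0.102). Ticrynafen was called in both tables, at −0.73 ± 0.17 by RefSeq and −1.03 ± 0.27 by Ensembl, and the Ensembl call was lost with 6 of the 8 rats left out. Clofibrate was called in both, at −0.81 ± 0.19 by RefSeq and −0.995 ± 0.24 by Ensembl, in groups that shared no flow cell.

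Col3a1 was lower in 17 comparisons, and in each of those listed here all treated rats were below all vehicle rats. Ticlopidine livers had 154, 160, 141 and 185 CPM, against 377, 373, 359 and 406 CPM in vehicle livers, a log2 fold change of −1.24 ± 0.09 (edgeR adjusted p = 4.94e-06). Flutamide livers had 159, 137, 229 and 235 CPM, against 375, 361, 361 and 391 CPM in vehicle livers (−0.97 ± 0.17, edgeR adjusted p = 0.00121). In both comparisons the highest treated value lay below the lowest vehicle value. Almorexant livers had 48.2, 173, 83.9 and 144 CPM, against 255, 331, 283 and 355 CPM in vehicle livers (−1.45 ± 0.36, edgeR adjusted p = 0.0140), with treated rats 1 and 3 lowest. RIN was 7.1 to 7.3 in these almorexant livers, against 6.2 to 7.3 in their vehicle livers. Repeat libraries of some of these rats under another batch number were not tested. The pair of diphenhydramine livers had 189 and 211 CPM, against 357 to 574 CPM in 4 vehicle livers (−1.22 ± 0.24, edgeR adjusted p = 0.0417). RIN did not overlap between these groups, with means of 9.34 in diphenhydramine and 8.7 in vehicle livers, and cannot be told apart from the treatment.

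The drugs with a lower Col3a1 were of several classes. They included the antidepressants fluoxetine (−1.12 ± 0.24) and paroxetine (−0.84 ± 0.16), the antihistamine hydroxyzine (−0.95 ± 0.18), the endothelin receptor antagonist sitaxsentan (−0.80 ± 0.21), clofibrate (−0.69 ± 0.14), NB-360 (−0.68 ± 0.15), carbamazepine (−0.59 ± 0.15) and ritonavir (−0.42 ± 0.10), as log2 fold changes with SE. The paroxetine and clofibrate groups shared no flow cell with their vehicle groups, so flow cell and treatment cannot be told apart there. In clarithromycin livers Col3a1 was at 329, 413, 320 and 425 CPM, against 438, 629, 550 and 502 CPM in vehicle livers (−0.51 ± 0.13, edgeR adjusted p = 0.0262), lost with 4 of the 8 rats left out. In chlorpropamide livers it was at 278, 261, 227 and 276 CPM, against 373, 335, 306 and 387 CPM in vehicle livers (−0.43 ± 0.11, edgeR adjusted p = 0.0230), lost without treated rat 2, treated rat 3 or vehicle rat 1.

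Col1a1, Col1a2 or Col3a1 was called higher with 3 anti-inflammatory drugs: diclofenac, naproxen and, by RefSeq counts, sudoxicam. In phenobarbital livers Col1a2 by RefSeq was 1.36 ± 0.23, with both treated rats above all vehicle rats, and did not pass (edgeR adjusted p = 0.0523). Diclofenac livers had 67.8, 76.9 and 316 CPM of Col1a1, against 24.3, 29.4, 20.9 and 19.6 CPM in vehicle livers, with no overlap (log2 fold change 2.70 ± 0.53, n = 3 and 4, edgeR adjusted p = 0.00826). Treated rat 3 was far above the others, and without it the log2 fold change was 1.62, still called. Col1a2 by RefSeq had 107, 161 and 263 CPM in diclofenac livers, against 51.4, 57.5, 50.8 and 54.5 CPM in vehicle livers (1.72 ± 0.27, edgeR adjusted p = 0.00290), beside 1.66 ± 0.26 by Ensembl. Col3a1 was at 477, 935 and 1544 CPM in diclofenac livers, against 470, 501, 455 and 512 CPM in vehicle livers, which overlap, and it did not pass (1.02 ± 0.34, edgeR adjusted p = 0.0572).

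In naproxen livers it was Col3a1 that passed. The 2 treated rats had 824 and 790 CPM, against 426, 394, 541 and 472 CPM in the 4 vehicle rats, both above all 4 (0.82 ± 0.16, edgeR adjusted p = 0.00519). Col1a1 was at 33.9 and 34.4 CPM in naproxen livers, against 34.6, 21.5, 28.3 and 31.7 CPM in vehicle livers, which overlap (0.23 ± 0.19, edgeR adjusted p = 0.361). Col1a2 by RefSeq was at 125 and 107 CPM in naproxen livers, against 42.1 to 66.1 CPM in vehicle livers (1.04 ± 0.18, edgeR adjusted p = 0.00307), where the Ensembl row gave 0.70 ± 0.29 (edgeR adjusted p = 0.0968). Sudoxicam livers had 72.3, 65.5 and 97.3 CPM of Col1a2 by RefSeq, against 37.7, 45.1, 56.5 and 38.2 CPM in vehicle livers (0.82 ± 0.20, edgeR adjusted p = 0.0133). In the same livers Col1a1 had a log2 fold change of −0.02 ± 0.25 and Col3a1 of 0.59 ± 0.27, neither called.

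Serpinh1, the collagen chaperone gene, was called in the direction of Col1a1 or Col3a1 with fluoxetine, chlorpropamide, sitaxsentan, diclofenac and naproxen, and where none of the 3 collagen genes was called with Cmpd Z, panadiplon, phenobarbital and azithromycin. In sitaxsentan livers it had 9.89, 14.0, 11.6 and 19.1 CPM, against 36.2, 26.4, 30.3 and 38.7 CPM in vehicle livers, with no overlap (−1.27 ± 0.21, edgeR adjusted p = 0.00429). Fluoxetine livers had 14.8, 8.62 and 11.6 CPM, against 32.4, 26.4, 29.3 and 18.7 CPM in vehicle livers (−1.19 ± 0.23, edgeR adjusted p = 0.00439), a fold change of −0.32 and no call with RIN as a covariate. Livers given the compound coded Cmpd Z had 19.4, 19.6, 18.1 and 13.4 CPM, against 34.1, 37.2, 25.7 and 28.4 CPM in vehicle livers (−0.83 ± 0.16, edgeR adjusted p = 0.00227). In all 3 every treated rat was below every vehicle rat, as the choice of these falls required. Panadiplon was the fourth (−0.39 ± 0.11). Chlorpropamide was the fifth, at 9.95, 20.0, 11.5 and 13.3 CPM, against 62.8, 19.3, 30.0 and 34.3 CPM in vehicle livers. There the groups overlap, vehicle rat 1 is the highest, and the call (−1.42 ± 0.39, edgeR adjusted p = 0.0491) was lost with 7 of the 8 rats left out.

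The rises of Serpinh1 were in phenobarbital, diclofenac, naproxen and azithromycin livers. In the 2 phenobarbital rats it was at 35.5 and 25.7 CPM, against 11.4, 8.92 and 9.79 CPM in 3 vehicle rats (1.61 ± 0.18, edgeR adjusted p = 0.0129), lost with 2 of the 5 rats left out. Diclofenac livers had 20.5, 33.4 and 51.7 CPM, against 15.4, 15.4, 19.2 and 19.4 CPM in vehicle livers (1.02 ± 0.28, edgeR adjusted p = 0.0294), lost with 5 of the 7 rats left out. Naproxen gave 0.56 ± 0.15 (edgeR adjusted p = 0.0208), lost with 2 of the 6 rats left out, and azithromycin 0.42 ± 0.14 (edgeR adjusted p = 0.0304). In flutamide and ticlopidine livers, where the collagens fell, Serpinh1 had log2 fold changes of −0.61 ± 0.29 and −0.14 ± 0.18, neither called.

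Other genes of folding went with it in some livers and not in others. Of 10 endoplasmic reticulum chaperones, all 10 were higher in fluoxetine and mibefradil livers, where Serpinh1 was lower (fluoxetine) or not called (mibefradil, −0.84 ± 0.35). In naproxen livers 9 of 10 were higher, and in diclofenac livers 0 of 10. Of the collagen-processing genes, 7 of 15 were higher in diclofenac and naproxen livers and 6 of 15 in sudoxicam livers. Pcolce, which enhances procollagen cleavage, had log2 fold changes of 5.11, 5.11 and 5.15 in diclofenac, naproxen and sudoxicam livers, and the crosslinking enzyme gene Lox 3.69, 3.34 and 3.27.

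Sparc was the gene of the 10 called lower most often. Flutamide livers had 99.6, 96.9, 122 and 128 CPM, against 219, 219, 232 and 245 CPM in vehicle livers, a log2 fold change of −1.03 ± 0.11 (edgeR adjusted p = 8.42e-05). Ticlopidine livers had 114, 129, 137 and 133 CPM, against 238, 223, 230 and 257 CPM in vehicle livers (−0.89 ± 0.08, edgeR adjusted p = 1.62e-05). In both, the treated and vehicle values were far apart. Almorexant livers had 78.5, 162, 95.0 and 144 CPM, against 202, 226, 199 and 234 CPM in vehicle livers (−0.84 ± 0.24, edgeR adjusted p = 0.0232), with the lowest values in treated rats 1 and 3, as for Col3a1.

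The remaining falls of Sparc were smaller, down to a log2 fold change of −0.35 ± 0.08 with amprenavir. They took in paroxetine (−0.82 ± 0.11), ticrynafen (−0.80 ± 0.14), fluoxetine (−0.74 ± 0.11), zimelidine (−0.68 ± 0.09), hydroxyzine (−0.66 ± 0.14), NB-360 (−0.65 ± 0.09), nifedipine (−0.57 ± 0.11) and azithromycin (−0.53 ± 0.08), each with all treated rats below all vehicle rats. The paroxetine groups shared no flow cell, as said above. Sparc rose in diclofenac livers, at 286, 459 and 479 CPM, against 232, 232, 241 and 260 CPM in vehicle livers (0.76 ± 0.20, edgeR adjusted p = 0.0233), lost with 5 of the 7 rats left out. It also rose in phenobarbital livers, at 159 and 129 CPM, against 77.5, 69.0 and 70.0 CPM in vehicle livers (0.99 ± 0.13, edgeR adjusted p = 0.0209), lost with 4 of the 5 rats left out.

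Other matrix genes fell in the same livers. Of the 15 tested from a list of 19 other matrix proteins, 13 were lower in flutamide and 14 in ticlopidine livers, with median log2 fold changes of −1.03 and −1.05, against −0.02 and −0.01 over all genes. In ticlopidine livers Eln, the elastin gene, had −1.80 and Fn1, the fibronectin gene, −1.61, and in flutamide livers Col6a2 had −1.42 and Lamb1 −1.19. The counts were 10 of 17 lower with ticrynafen, 8 of 16 with chlorpropamide, 11 of 17 with clarithromycin and 9 of 17 (1 higher) with fluoxetine. Of the quiescent stellate cell markers, 8 of 10 tested were lower in both flutamide and ticlopidine livers. They included Pdgfrb, the receptor for a stellate cell mitogen, at −1.75 and −1.54.

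These livers also had lower markers of other cells. In flutamide livers 11 of 11 endothelial, 10 of 11 macrophage and 7 of 10 hepatocyte markers were lower, the summed hepatocyte markers running from 108600 to 132400 CPM, against 203000 to 216400 CPM in vehicle livers. In ticlopidine livers 10 of 11 endothelial, 11 of 11 macrophage and 8 of 10 hepatocyte markers were lower, with hepatocyte sums of 79160 to 103200 CPM, against 209900 to 234000 CPM in vehicle livers. Macrophage markers were lower in 8 of 11 with ticrynafen, 10 of 11 with chlorpropamide and 9 of 11 with clarithromycin. RIN was 8.8 to 9.2 in flutamide livers, against 8.2 to 8.3 in vehicle livers, and 8.5 to 8.9 in ticrynafen livers, against 7.4 to 8.2 in vehicle livers. RIN and treatment cannot be told apart in either, and with RIN as a covariate 0 of the 10 genes were called in both. RIN did not overlap, either, with fluoxetine (8.6 to 8.9, against 8.2 to 8.5 in vehicle livers), sitaxsentan (8.2 to 8.8, against 6.9 to 7.6), naproxen (8.6 to 8.8, against 6.7 to 8.3) and phenobarbital (8.82 to 8.83, against 8.41 to 8.69). Adding RIN to the fit gave 4 of the 10 genes called with fluoxetine, 5 with naproxen and 0 with phenobarbital. That count is not given here for sitaxsentan. In these comparisons, too, RIN and treatment cannot be told apart. In ticlopidine livers RIN overlapped, at 8.4 to 8.9 against 8.2 to 8.7 in vehicle livers. The part of these markers in the results was not tested.

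Of the contractile genes, Acta2, which encodes the smooth muscle actin that marks activated stellate cells, was lowest in ticlopidine and TCDD livers. Ticlopidine livers had 1.02, 0.842, 0.552 and 0.760 CPM, against 3.67, 4.50, 3.57 and 3.09 CPM in vehicle livers, with no overlap (−2.21 ± 0.23, edgeR adjusted p = 3.83e-05). Male Han Wistar rats given the dioxin TCDD (0.00015 mg/kg for 4 days, in corn oil with 1% acetone) had 0.511, 0.733, 0.729 and 0.768 CPM, against 1.46, 2.31, 3.71 and 1.66 CPM in vehicle rats (−1.70 ± 0.33, edgeR adjusted p = 0.00524; 12.1% of all genes lower). All 4 TCDD values lie below the lowest vehicle value, but the groups shared no flow cell and their RIN did not overlap, at 9.1 to 9.3 against 7 to 8.6, so these cannot be told apart from the treatment.

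Flutamide livers had 1.25, 1.58, 1.94 and 1.31 CPM of Acta2, against 3.82, 4.41, 3.202 and 3.06 CPM in vehicle livers (−1.23 ± 0.21, edgeR adjusted p = 0.00113). In ticrynafen livers the values were 1.34, 1.75, 0.874 and 1.06 CPM, against 2.32, 3.09, 3.69 and 3.26 CPM in vehicle livers (−1.28 ± 0.26, edgeR adjusted p = 0.0161). Both pairs of groups were separate. Omeprazole was the other fall with a complete separation in 4 against 4 rats (−0.85 ± 0.21, edgeR adjusted p = 0.0408). The rise of Acta2 was in mibefradil livers, at 5.71, 6.08 and 5.00 CPM, against 3.17, 3.91, 3.62 and 3.69 CPM in vehicle livers (0.64 ± 0.16, edgeR adjusted p = 0.0334), and was lost with 6 of the 7 rats left out.

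Tagln, which encodes the actin-binding protein transgelin, fell with Acta2 in ticlopidine, ticrynafen and flutamide livers. It had 1.85, 1.101, 1.04 and 0.950 CPM in ticlopidine livers, against 4.21, 5.00, 2.43 and 4.14 CPM in vehicle livers (−1.67 ± 0.28, edgeR adjusted p = 0.000734). The log2 fold change was −1.31 ± 0.24 with ticrynafen (edgeR adjusted p = 0.0129) and −1.15 ± 0.22 with flutamide (edgeR adjusted p = 0.00204), with separate groups in all 3. It was lower, too, with sitaxsentan (−0.96 ± 0.17), ritonavir (−0.80 ± 0.24) and azithromycin (−0.70 ± 0.24). It rose with co-amoxiclav, at 4.18, 5.90, 3.79 and 2.92 CPM, against 2.05, 2.73, 2.66 and 2.37 CPM in vehicle livers (0.77 ± 0.22, edgeR adjusted p = 0.0486).

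In naproxen livers the contractile genes fell where Col3a1, Dcn and Timp1 rose. Acta2 was at 1.16 and 2.06 CPM in naproxen livers, against 4.72, 4.80, 3.74 and 3.14 CPM in vehicle livers (−1.34 ± 0.33, edgeR adjusted p = 0.0143), and Tagln at 2.27 and 3.23 CPM, against 4.55, 4.73, 5.70 and 5.03 CPM in vehicle livers (−0.86 ± 0.24, edgeR adjusted p = 0.0231). Acta2 lost its call with 1 and Tagln with 2 of the 6 rats left out. Of 11 smooth muscle genes tested, 8 were lower and 2 higher in naproxen livers, and 8 of 10 were lower in ticlopidine livers, with Myh11, the smooth muscle myosin heavy chain gene, at −1.95.

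**Figure D3:**
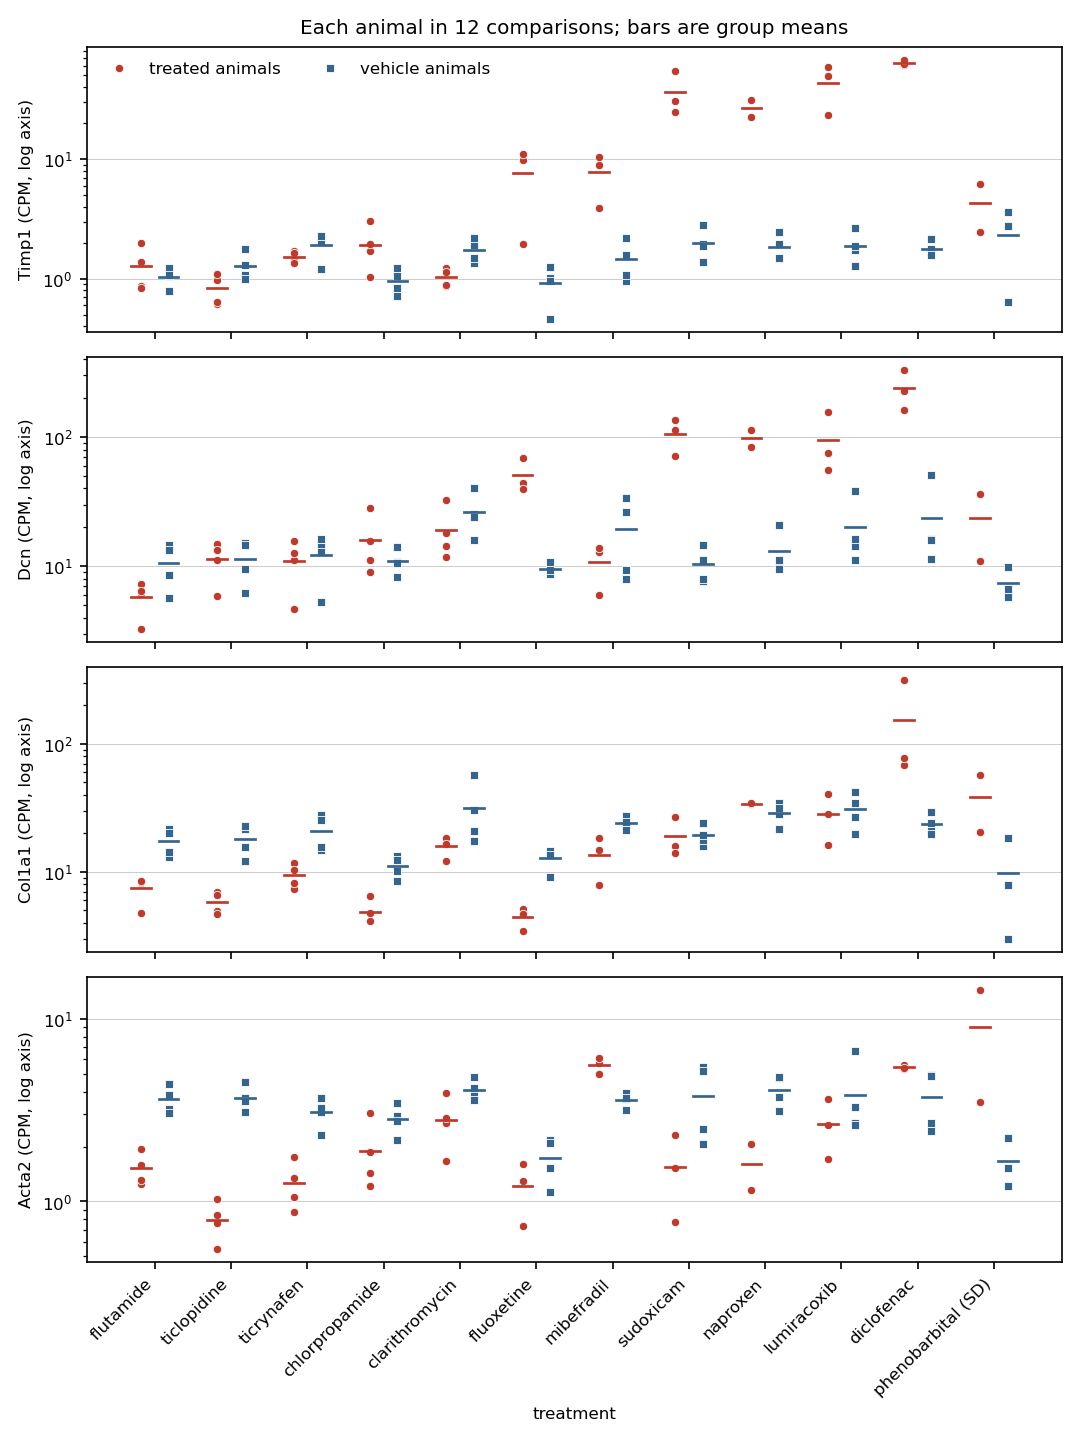
CPM on log axes of Timp1, Dcn, Col1a1 and Acta2 in each rat of 12 comparisons, treated rats as circles left of vehicle rats as squares, with bars for group means. Timp1 and Dcn stand above vehicle in fluoxetine, sudoxicam, naproxen, lumiracoxib and diclofenac livers, while Acta2 lies below vehicle in the flutamide, ticlopidine, ticrynafen and naproxen livers.

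The proteoglycan gene Dcn, whose product decorin coats collagen fibrils, was higher in 5 comparisons. Sudoxicam livers had 71.2, 113 and 136 CPM, against 11.1, 7.63, 14.6 and 8.02 CPM in vehicle livers (3.36 ± 0.30, edgeR adjusted p = 0.000175). Diclofenac livers had 228, 162 and 331 CPM, against 16.3, 50.8, 15.8 and 11.5 CPM in vehicle livers (3.35 ± 0.54, edgeR adjusted p = 0.00365). Naproxen livers had 84.0 and 114 CPM, against 10.9, 9.53, 20.9 and 11.2 CPM in vehicle livers (2.92 ± 0.31, edgeR adjusted p = 0.000517). In these 3 comparisons the lowest treated rat was above the highest vehicle rat, as the choice of these rises required.

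Fluoxetine livers had 44.3, 39.5 and 68.8 CPM of Dcn, against 9.13, 8.70, 9.33 and 10.8 CPM in vehicle livers (2.42 ± 0.20, edgeR adjusted p = 0.000181). Lumiracoxib livers had 55.9, 156 and 74.8 CPM, against 11.2, 14.5, 16.3 and 38.5 CPM in vehicle livers (2.24 ± 0.50, edgeR adjusted p = 0.0203). Again no groups overlapped. In the fluoxetine livers Dcn and Timp1 were thus higher while Col1a1, Col3a1, Sparc and Serpinh1 were lower. The fall of Dcn was in alpidem livers, at 10.0, 7.73, 10.3 and 11.8 CPM, against 17.6, 11.0, 23.2 and 18.4 CPM in vehicle livers, which overlap (−0.81 ± 0.21, edgeR adjusted p = 0.0368).

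Lum, which encodes the related proteoglycan lumican, had few counts (a median of 13 per library). It was called in diclofenac livers, at 7.49, 2.91 and 58.1 CPM, against 2.17, 3.27, 0.513 and 0.758 CPM in vehicle livers. The groups overlap, treated rat 3 was far above the others, and the call (3.75 ± 1.05, edgeR adjusted p = 0.0317) was lost with 4 of the 7 rats left out, the log2 fold change being 1.63 at its lowest.

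Timp1 had the largest called changes of the 10 genes. Diclofenac livers had 60.6, 61.8 and 67.3 CPM, against 1.61, 1.79, 1.59 and 2.14 CPM in vehicle livers (5.14 ± 0.14, edgeR adjusted p = 4.47e-06). Lumiracoxib livers had 23.2, 49.3 and 58.3 CPM, against 1.27, 2.67, 1.72 and 1.88 CPM in vehicle livers (4.53 ± 0.37, edgeR adjusted p = 0.000727). Sudoxicam livers had 24.6, 54.2 and 30.3 CPM, against 1.93, 1.37, 2.83 and 1.87 CPM in vehicle livers (4.17 ± 0.34, edgeR adjusted p = 0.000132). The vehicle rats of these 3 studies stayed under 3 CPM and no treated rat was under 23 CPM.

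Naproxen livers had 22.3 and 31.2 CPM of Timp1, against 2.44, 1.49, 1.96 and 1.501 CPM in vehicle livers (3.85 ± 0.24, edgeR adjusted p = 2.76e-05). Fluoxetine livers had 9.79, 1.95 and 11.0 CPM, against 0.463, 1.01, 1.25 and 0.955 CPM in vehicle livers (3.03 ± 0.58, edgeR adjusted p = 0.00441), with treated rat 2 closest to vehicle. Mibefradil livers had 8.97, 10.4 and 3.87 CPM, against 2.20, 0.950, 1.59 and 1.08 CPM in vehicle livers (2.41 ± 0.40, edgeR adjusted p = 0.0113), lost with 1 of the 7 rats left out. Smaller rises were found with sitaxsentan (1.74 ± 0.32, edgeR adjusted p = 0.00580) and azithromycin (1.20 ± 0.30, edgeR adjusted p = 0.00918), with all treated rats above all vehicle rats. The fall of Timp1 was in clarithromycin livers (−0.75 ± 0.23, edgeR adjusted p = 0.0481), and was lost with 7 of the 8 rats left out.

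Markers of inflammation were also higher in the 6 comparisons with the largest called rises of Timp1. The summed CPM of 7 neutrophil markers was 2685 to 6675 in diclofenac livers, against 2.24 to 5.44 in vehicle livers, 4350 to 11870 in lumiracoxib livers, against 2.26 to 5.22 in vehicle livers, and 5393 to 15210 in sudoxicam livers, against 3.53 to 8.22 in vehicle livers. In naproxen livers the sum was 7808 to 8531 CPM, against 3.13 to 4.28 in vehicle livers, in fluoxetine livers 520 to 6777, against 2.38 to 2.92 in vehicle livers, and in mibefradil livers 18.5 to 558, against 1.83 to 3.55 in vehicle livers. In sitaxsentan livers it was 6.80 to 95.6 CPM, against 2.90 to 6.93 in vehicle livers, which overlap, with 3 of 6 markers called higher. Most of the markers tested were higher in 12 of the 97 comparisons, more than the 8 with a Timp1 rise. Most of each sum was Lcn2, which hepatocytes also make in the acute phase, with a mean of 4161 CPM in diclofenac livers, against 1.63 CPM in vehicle livers. S100a8, a gene of neutrophils and monocytes, averaged 40.7 CPM in diclofenac livers, against 0.2205 CPM in vehicle livers. Of 14 acute phase genes, 13 were higher with diclofenac, naproxen, lumiracoxib and fluoxetine, 14 with sudoxicam and 10 with mibefradil. Of 11 macrophage markers, 9 were higher with each of the 4 anti-inflammatory drugs, and of 11 endothelial markers 4 with diclofenac, 7 with naproxen, 8 with sudoxicam and 6 with lumiracoxib. Portal fibroblast and mesothelial markers summed to 58.7 to 94.7 CPM in diclofenac livers, against 17.9 to 43.2 CPM in vehicle livers, with 5 of 11 higher. Of the same markers 1 of 10 was higher with naproxen, 3 of 9 with sudoxicam and 1 of 8 with lumiracoxib, and their sums overlapped those of the vehicle livers. The part of these cells in the results was not tested.

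Matrix proteases and their inhibitors were mostly higher in the livers of the anti-inflammatory drugs. Of 13 tested from that list, 10 were higher in diclofenac, naproxen (1 lower) and sudoxicam livers, and 7 (1 lower) in lumiracoxib livers. Fluoxetine livers had 6 of 12 higher and 3 lower, and mibefradil livers 3 of 13 higher and 1 lower. Mmp9, the gene of a gelatin-degrading metalloproteinase, had log2 fold changes of 5.74, 2.72 and 3.78 in diclofenac, naproxen and sudoxicam livers. The quiescent stellate cell markers went both ways: 5 of 11 higher and 3 lower with diclofenac, 5 of 12 higher and 4 lower with naproxen, and 5 of 10 higher and 3 lower with sudoxicam. Among them Des, the desmin gene, had log2 fold changes of 6.30, 3.47 and 3.22 and Cygb 2.21, 2.64 and 2.24 with these drugs, while Ecm1 fell in diclofenac (−1.67) and naproxen (−1.99) livers.

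In the livers of Sprague Dawley rats given phenobarbital, the 10 genes had a median log2 fold change of 1.61, against 0.00 over all genes. Of the 10 genes 2 were called, where 0.758% of all genes were called higher. These values rest on 2 treated and 3 vehicle rats. Acta2 had 14.4 and 3.52 CPM, against 1.22, 1.53 and 2.22 CPM in vehicle rats (2.44 ± 0.61, edgeR adjusted p = 0.149), and Tagln 15.5 and 8.20 CPM, against 3.86, 3.06 and 4.77 CPM in vehicle rats (1.61 ± 0.32, edgeR adjusted p = 0.0747). Treated rat 1 was the higher in both. The summed cholangiocyte markers were 36.6 to 148 CPM in phenobarbital livers, against 13.9 to 15.3 CPM in vehicle livers, and portal fibroblast and mesothelial markers 29.7 to 92.3 CPM, against 24.9 to 40.6 CPM in vehicle livers, and their part was not tested. In Han Wistar rats dosed with phenobarbital at 100 mg/kg for 7 days (5 against 5 rats), 0 of the 10 genes and 0 of 12640 (0% in each direction) were called. The difference between the strains was not tested, since the studies, days and vehicles differ. The vehicle of these Han Wistar rats was 0.4% hydroxypropyl methylcellulose in water.

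A single quinidine rat carried the highest Acta2, Tagln, Col1a1 and Sparc of all 680 rats. Quinidine livers had 3.91, 1.78, 70.2 and 2.29 CPM of Acta2, against 3.00, 2.99, 2.69 and 3.06 CPM in vehicle livers, and 21.4, 23.0, 511 and 33.7 CPM of Col1a1, against 14.9, 17.3, 25.8 and 11.6 CPM in vehicle livers. Treated rat 3 is the high one in both. Its RIN was 2.2, the lowest of the series, against 7.8 to 8.3 in the vehicle rats. It also had 100 CPM of Myh11, against at most 8.86 CPM in the other treated rats, with 83.9 CPM of Actg2, against at most 1.25 CPM in them, and 103 CPM of Des, a gene of muscle and also a stellate cell marker, against at most 4.03 CPM in them. Its cholangiocyte markers summed to 278 CPM, against 17.9 to 34.6 CPM in the other treated rats, and its portal fibroblast and mesothelial markers to 217 CPM, against 17.6 to 29.5 CPM in them. The stellate cell markers Lrat and Reln, unlike Des, were lower in it, at 15.8 and 12.0 CPM, against 24.2 to 31.3 and 32.1 to 35.5 CPM in the other treated rats. None of the 10 genes was called with quinidine (0.0159% of all genes higher, 0% lower), with or without that rat, and the part of RNA quality or of other tissue in its values was not tested.

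Doses of 750 and 600 mg/kg of MK-3207, an antagonist of the CGRP receptor, could be compared within 1 study of Han Wistar rats, with 4 rats at each dose. Acta2 averaged 1.51 ± 0.33 CPM at 750 mg/kg and 2.86 ± 0.85 CPM at 600 mg/kg (SD), with 2.10 ± 0.31 CPM in the vehicle rats that both doses share. The doses did not overlap, at 1.21 to 1.87 CPM for 750 mg/kg and 2.18 to 4.02 CPM for 600 mg/kg, but the difference did not pass (log2 −0.92 ± 0.24, edgeR adjusted p = 0.613). None of the 10 genes and 0 of 12874 genes were called between the doses by edgeR, with 917 genes at an unadjusted p under 0.05. DESeq2 called 19 genes, none of the 10 among them.

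Some of these genes, like many others, differed in level between the vehicle groups of the strains. The strains were in different studies, so other differences between those studies cannot be told apart from strain. Vehicle groups of males dosed for 4 days with 0.5% methylcellulose were compared, 24 of Han Wistar (96 rats) and 33 of Sprague Dawley (124 rats). Each group gave 1 value, the CPM of the summed counts of its rats, and 1 Sprague Dawley group held 1 rat. Serpinh1 averaged 28.6 ± 4.68 CPM in Han Wistar and 17.1 ± 2.90 CPM in Sprague Dawley groups (SD over groups). The ranges overlapped little, 19.7 to 36.6 CPM in Han Wistar and 11.4 to 23.4 CPM in Sprague Dawley groups, and the log2 difference was 0.74 ± 0.07 (limma adjusted p = 8.15e-15). Lum averaged 1.47 ± 0.75 CPM in Han Wistar and 0.871 ± 0.717 CPM in Sprague Dawley groups (log2 difference 1.06 ± 0.24, limma adjusted p = 0.000262). Its ranges overlapped widely.

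Col1a1 and Timp1 were lower in Han Wistar rats. Col1a1 averaged 16.2 ± 5.28 CPM in Han Wistar and 23.7 ± 9.09 CPM in Sprague Dawley groups (−0.49 ± 0.15, limma adjusted p = 0.0063), and Timp1 1.34 ± 0.34 CPM in Han Wistar and 1.84 ± 0.40 CPM in Sprague Dawley groups (−0.46 ± 0.09, limma adjusted p = 2.14e-05). The other 6 genes were not called. By comparison 26.2% of all 14505 genes were called higher and 23% lower in Han Wistar. The same 4 genes were called among the groups of sequencing batch number 3 alone, 13 of Han Wistar and 22 of Sprague Dawley.

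**Figure D4:**
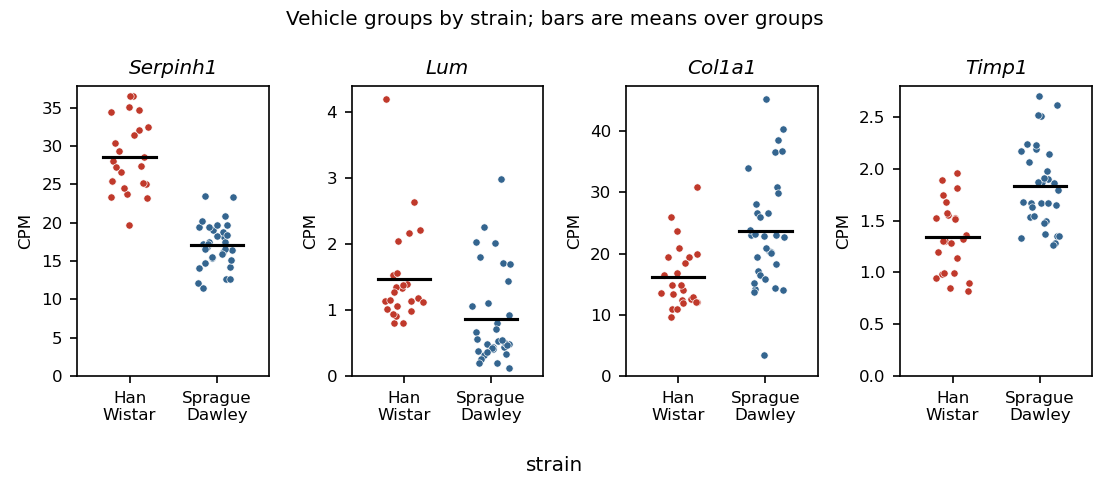
CPM of Serpinh1, Lum, Col1a1 and Timp1 from the summed counts of each vehicle group, Han Wistar left of Sprague Dawley, with bars for the means over groups. Serpinh1 separates the strains best, with means of 28.6 CPM in Han Wistar and 17.1 CPM in Sprague Dawley groups.

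Between vehicle rats of the same group, the collagens and Sparc varied together. Serpinh1 showed little correlation with the contractile genes, the proteoglycans or Timp1 over all rats pooled. Over 309 rats, each as its deviation from its group mean, Pearson's r was 0.71 and Spearman's rho 0.71 for Col3a1 with Sparc, and r was 0.71 without the 2 rats farthest from the median. Lum with Dcn had r = 0.53 and rho = 0.53, and r = 0.52 without 2 rats. Col1a1 with Col3a1 had r = 0.50 and rho = 0.55, and r = 0.53 without 2 rats. All 3 pairs had the smallest p that 100000 permutations can give, 1e-05, with an adjusted p of 3.5e-05 over the 45 pairs, of which 29 passed.

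Tagln with Acta2 had r = 0.38 and rho = 0.54 (permutation p = 2e-05 and 1e-05), and r = 0.35 without 2 rats. Within the 15 rats of batch number 10 its r was 0.0077, against 0.44 to 0.77 in the other 5 batch numbers, a difference that was not tested, while over the 6 batch numbers Col3a1 with Sparc ran from 0.68 to 0.92, Lum with Dcn from 0.20 to 0.70 and Col1a1 with Col3a1 from 0.13 to 0.64. The pairing of the 2 chains of type I collagen depended on the table: Col1a1 with Col1a2 had r = 0.38 by Ensembl and 0.74 by RefSeq counts. Serpinh1 had r = 0.24 with both Col3a1 and Sparc, and between −0.06 and 0.03 with Tagln, Acta2, Lum, Dcn and Timp1. Within single batch numbers its r ran from −0.57 to 0.53 with Tagln and from −0.26 to 0.48 with Timp1.

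**Figure D5:**
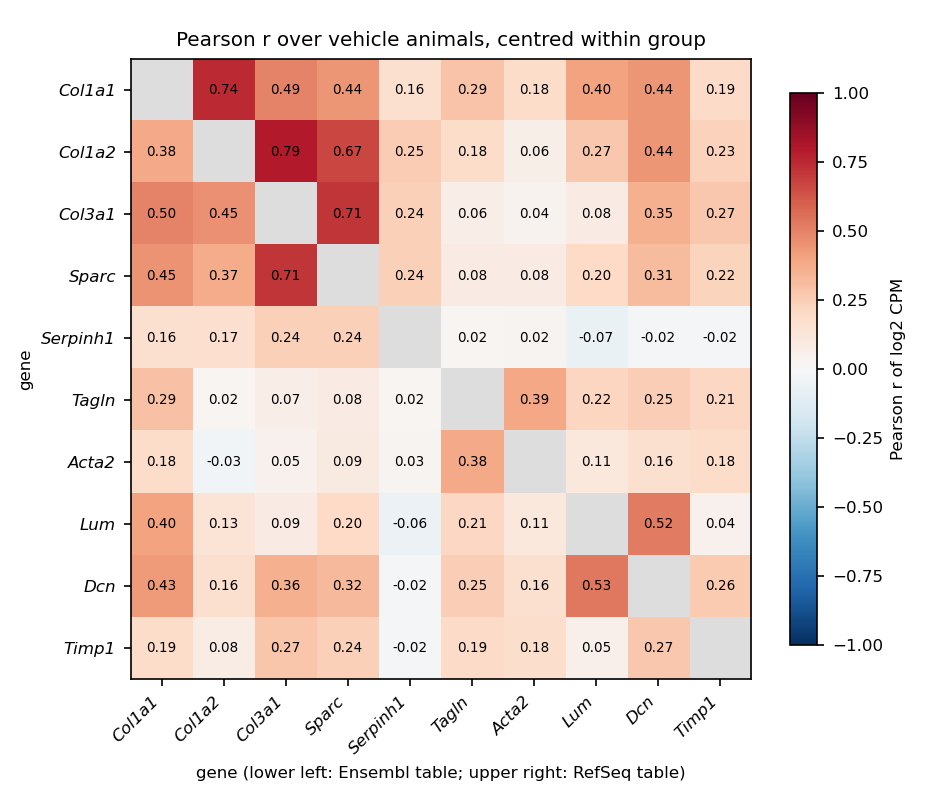
Pearson's r between the 10 genes over 309 vehicle rats, each as its deviation from its group mean, with Ensembl genes at the lower left and RefSeq genes at the upper right. Col3a1 with Sparc is at 0.71 in both, Col1a2 gains when RefSeq counts are used, and the row of Serpinh1 is pale.

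The genes most like each kind over those rats were found by r among 11825 genes. For the mean of the 3 collagen genes (Ensembl rows) the most alike were AABR07068316.1 (r = 0.646), the metalloproteinase gene Mmp2 (0.635), the basement membrane collagen gene Col4a1 (0.621), Lamb1 (0.618), Fbn1 (0.610), C7 (0.602), Col4a2 and Fstl1 (0.588 each). For Acta2 with Tagln they were Myh11 (0.675), Tpm2 (0.501), Kif12 (0.471), Anxa13 (0.447), Flna (0.433), Icam2, Cav1 and Gsn. Serpinh1 had no close companion: the most alike gene was Ints3 (0.32), then Plekhb1 (0.314) and Pdia4 (0.3). Timp1 was most like Ifitm2 (0.422), Ccdc88b (0.387) and Mxra8 (0.381).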

How the data were processed

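RNA was extracted from frozen rat liver with MagMAX reagents and made into TruSeq Stranded mRNA libraries, per the labels' protocols. The reads were set against Rnor_6.0, per the submitters' processing notes; the aligner and counter are not given in the sources used here. Expected counts, not normalized, were deposited for Ensembl genes (32893 rows) and for RefSeq genes (34335 rows); 88.05% and 92.55% of the values above 0 are whole within 1e-06. The authors also deposited FPKM values, used only for the levels of 80 vehicle libraries. The median library total was 18.21 M counts (lowest 0.313 M, highest 45.5 M), and the study of PCN had the lowest, none above 10.03 M. Of the libraries, 25 had a RIN under 7.

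Libraries of 1 rat were summed and the counts rounded. Within a study, batch number and vehicle, treated rats were tested against vehicle rats with edgeR's quasi-likelihood test (TMM scaling, filterByExpr filter), and p-values were adjusted by Benjamini-Hochberg over all genes tested, with a threshold of 0.05. Sex was a term of the fit where the treated and the vehicle rats both held both sexes. A p-value measures the spread between the rats of 1 study. CPM values are counts scaled to TMM library size. Strains were compared with limma, and correlations over vehicle rats used log2 CPM with a prior count of 0.5 and 100000 permutations. On simulated data for sudoxicam, azithromycin and methimazole (12467, 12362 and 12264 genes, 100 genes changed at each size), edgeR found 23%, 71% and 72% of changes of log2 1 and 84%, 99% and 93% of log2 2.

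The members and 16 other gene lists were chosen with earlier results of these data known. Named are the 10 members, the comparisons with most members lower (6) and higher (6), for each member the 3 largest called rises and falls of at least 1 CPM with no overlap, up to 4 called genes of each list, and the 8 genes most alike. Smaller called changes, those with overlap and the lumiracoxib, quinidine and phenobarbital values in other lists were added after their values were seen. Alternatives were RLE factors, DESeq2, no count filter, the RefSeq table, RIN as a covariate and leaving out each rat. R 4.3.3, edgeR 4.0.16, DESeq2 1.42.0, limma 3.58.1, Python 3.11.15, pandas 2.3.3 and matplotlib 3.10.9 were used.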

Additional observations from a re-analysis of the deposited data

Results flagged for a closer look

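Of 180 sets of values tested, each of 1 gene in 1 group of rats, 10 held a value far from the others. Chance flags about 1 in 20, but the 10 genes of a group share the same rats. The groups were those of at least 4 rats in the comparisons with most genes lower or higher and in the quinidine comparison. Among the quinidine-treated rats, 4 genes had 1 rat far above the other 3, the rat with a RIN of 2.2. Col1a1 was 511 CPM in it, against 21.4 to 33.7 CPM in the others, and Lum was 53.6 CPM, against 0.573 to 0.704 CPM. Dcn was 92.4 CPM in it, against 18.4 to 23.3 CPM, and Timp1 28.6 CPM, against 1.88 to 2.61 CPM. In the quinidine vehicle rats Lum was 0 CPM in 1 rat and 0.226 to 0.315 CPM in the others.

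Among the flutamide-treated rats, treated rat 2 was lowest, with 4.81 CPM of Col1a1, against 8.25 to 8.51 CPM in the others, and 3.99 CPM of Col1a2, against 13.5 to 16.2 CPM. A clarithromycin-treated rat had 14.0 CPM of Col1a2, against 29.7 to 32.4 CPM. In the clarithromycin vehicle rats 1 rat had 232 CPM of Sparc, against 271 to 277 CPM, and 1 had 5.65 CPM of Tagln, against 3.91 to 4.14 CPM. The Col1a2 values are from the Ensembl row that shares its reads with another row. By RefSeq counts flutamide-treated rat 2 had 14.7 CPM, against 15.7 to 21.5 CPM in the others, and the lowest clarithromycin-treated rat 44.3 CPM, against 47.4 to 58.7 CPM, so neither stood apart.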

How the results depend on the processing

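Over all comparisons, 70 calls were lower and 25 higher. DESeq2 gave 123 lower and 51 higher, and RIN as a covariate 27 lower and 18 higher, 26 of the 27 among the 70. RLE factors, no count filter and RefSeq counts gave 67 to 79 lower and 25 to 28 higher. With RIN as a covariate the count of genes called was 0 for flutamide, ticrynafen and phenobarbital, and 1 for clarithromycin, mibefradil and lumiracoxib. In flutamide livers the log2 fold changes of Col1a1, Col1a2 (Ensembl row) and Col3a1 turned to 0.22, 1.01 and 0.13 under it (edgeR adjusted p = 0.852, 0.63 and 0.876), where RIN did not overlap between the groups. DESeq2 called 5 genes for clarithromycin, 7 for phenobarbital, 4 for mibefradil and 4 for sudoxicam, no count filter 4 for phenobarbital, and RefSeq counts gave 4 for sudoxicam. The cause was not tested.

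With 1 rat left out, counts ran from 2 to 5 for chlorpropamide, 0 to 3 for clarithromycin, 4 to 8 for diclofenac, 3 to 7 for naproxen, 0 to 6 for phenobarbital, 0 to 2 for mibefradil and 1 to 2 for lumiracoxib, and kept within 1.5 times of the full count for flutamide, ticlopidine, ticrynafen, fluoxetine and sudoxicam. Of 349 such fold changes, 69 lost their call and none reversed. In groups of 2 rats the lone rat left is assumed to vary like the other group. Chosen after seeing the data were the quinidine and lumiracoxib fits without single rats, RefSeq counts for the correlations, and leaving out the comparisons with no shared flow cell (64 lower, 25 higher), those with a RIN under 7 (61 lower, 18 higher) or the PCN study (70 lower, 25 higher). No paired analysis was possible because treated and vehicle rats are different animals and their numbers only name them. Depth limits Lum, Timp1 and Acta2 most.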
